A study of Homo sapiens with 12 samples.

Results

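Gene expression in A172 glioblastoma cells that overexpress hHSS1 was compared with expression in their 2 control lines, in 6 arrays against 6. The comparison used 12 of the 12 arrays of the series, grouped by their labels. The hHSS1 arm held 3 arrays each of clone 7 and clone 8, which are stable transfectants carrying the pcDNA3.1 vector with hHSS1. The control arm held 3 arrays each of mock cells, stably transfected with the empty pcDNA3.1 vector, and of wild-type cells, which were not transfected. A172 is an adherent human cell line from a glioblastoma. By the study's methods the inserted hHSS1 carried a C-terminal tag of histidines, transfected cells were selected with G-418, and all cells were harvested in growth on day 4. The array was the GeneChip Human Gene 1.0 ST, and its deposited values are log2 expression levels, so that a difference of 1 stands for a 2-fold change. The mean of the 2 clones was set against the mean of the 2 control lines with equal weight for each line, and the genes whose 6 hHSS1 values all lay on one side of all 6 control values are described first. The 3 arrays of a line came from separate cultures by the labels, but each line was made or kept once. The spread behind each p-value is thus that between cultures of these 4 lines, and independently made lines were not compared.

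The gene hHSS1 has the present symbol EMC10. Its product is a subunit of the endoplasmic reticulum membrane protein complex (EMC), which inserts newly made membrane proteins, many receptors and transporters among them, into the membrane of the endoplasmic reticulum, and a form of it is secreted. Glioblastoma is known for fast division, invasion of the surrounding brain and dense vessel growth. The genes below are therefore ordered by the processes they serve: membrane proteins and adhesion, extracellular matrix, signalling, p53 response, cell division, and lipid synthesis.

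The array medians lay between 8.60 and 8.67 and their lower quartiles between 7.00 and 7.12. The lowest of these quartiles was taken by convention as the limit of a background range, since detection itself was not measured. Levels below it were treated as not told from background, and the size of a change that starts or ends there is uncertain. The median SD of a gene over 3 arrays was 0.08 in clone 7, 0.14 in clone 8, 0.05 in mock and 0.07 in wild-type cells. The profiles of 2 hHSS1 arrays went against their labels. The array labelled clone 7 replicate 3 lay nearest to clone 8 replicate 2, with a root mean square difference of 0.115 over all genes, and lay 0.257 and 0.266 from clone 7 replicates 1 and 2. The array labelled clone 8 replicate 3 lay 0.157 and 0.174 from clone 7 replicates 1 and 2, and 0.292 and 0.311 from clone 8 replicates 1 and 2. Clone 7 replicates 1 and 2 lay 0.104 apart, and clone 8 replicates 1 and 2 lay 0.246 apart. The groups were kept as labelled. The difference between hHSS1 and control arrays and the separation of the arms do not depend on which clone an hHSS1 array belongs to, but the standard errors and adjusted p-values do, as do all values for 1 clone. The counts of called genes and of genes with separate arms are given below with and without these 2 arrays. For gene lists, many but not all of the counts that changed by over 1.5 times are given.

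Of 18417 genes, 469 (2.55%) had all 6 hHSS1 arrays above all 6 control arrays and 786 (4.27%) had all 6 below. The median size of the difference over these 1255 genes was 0.29, so that most lay on one side by less than 1.5-fold. A gene was called higher or lower where the limma adjusted p was under 0.05 and the difference reached 1.5-fold. The study's methods give this fold limit for these cells, and a limit of 1.3-fold at an unadjusted p under 0.001 for another of its analyses. A limit on the adjusted value stands in its legends, while its methods name an unadjusted p. The fold changes in those legends are against vector-control cells only, without wild-type cells. Both limits used here held for 90 genes higher (0.489%) and 70 lower (0.38%), and 36 of these 160 differed at least 2-fold. By the adjusted p alone, with any fold, 943 genes (5.12%) were higher and 1278 (6.94%) lower, and the median difference of all genes was 0.02. The genes both called and with separate arms numbered 117, of which 64 were higher (0.348%) and 53 lower (0.288%). The counts of gene lists below are to be read beside these shares over all genes. Without the replicate 3 arrays of both clones, a setting added after the data were seen, 190 genes were called (105 higher and 85 lower), 582 genes lay above and 1018 below, and 1394 were higher and 1995 lower at the adjusted p alone. All 117 still had separate arms there and 112 were still called. Without clone 8 replicate 1 alone, 707 genes lay above. The lines within an arm also differed from each other. Mock against wild-type gave 124 called genes (0.673%), with 55 higher and 69 lower in mock. Clone 8 against clone 7 gave 0 called genes (0.0%), with 0 at the adjusted p alone and 1328 at an unadjusted p under 0.05 in limma. Without the 2 replicate 3 arrays, 617 genes (3.35%) were called between the clones, 173 higher and 444 lower in clone 8.

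**Figure D1:**
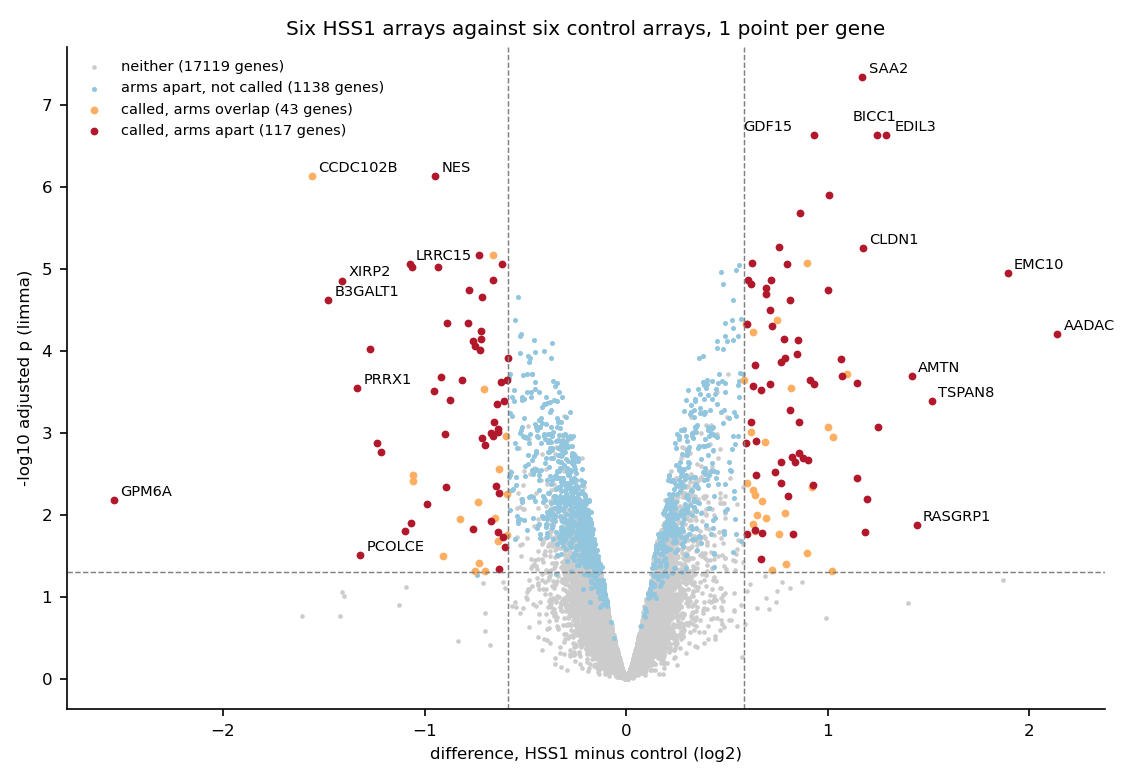
Each point is 1 of 18417 genes, with the log2 difference of hHSS1 minus control arrays on the horizontal axis and −log10 of the limma adjusted p on the vertical axis, and dashed lines at 1.5-fold and an adjusted p of 0.05. The 117 red genes were called with separate arms, the 43 orange genes were called while their arms overlapped, and the 1138 light blue genes had separate arms but were not called.

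EMC10 itself was checked first. It read 11.57, 11.72 and 12.30 in clone 7 and 12.13, 12.18 and 11.75 in clone 8, against 9.20, 9.33 and 9.51 in mock and 11.13, 10.43 and 10.69 in wild-type cells. All 6 hHSS1 arrays lay above all 6 control arrays, and mock was the lowest line. The difference was 1.89 ± 0.14 (SE; 6 arrays against 6, limma adjusted p = 1.12e-05), made up of 2.59 against mock and 1.19 against wild-type. The probe set reads vector and endogenous transcripts together. Of the other 9 subunits of the complex, 0 were called and 0 had separate arms. Their differences lay between -0.24 and 0.06. EMC6, a membrane-embedded subunit, was at the low end (-0.24, 95% confidence interval -0.41 to -0.07, adjusted p = 0.0662), and EMC3, which belongs to the core that inserts membrane segments, was at 0.06 (-0.05 to 0.17). The intervals of the other 7, among them EMC1 (-0.06 to 0.14), EMC2 (-0.10 to 0.17) and EMC8 (-0.17 to 0.09), held 0.

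The genes with the widest gap between the arms were AADAC and EDIL3, where the lowest hHSS1 array lay 0.95 above the highest control array. AADAC encodes arylacetamide deacetylase, an esterase of the endoplasmic reticulum. It read 8.77, 9.46 and 9.99 (lowest, median and highest) over the 6 hHSS1 arrays, against 6.41, 7.37 and 7.82 over the 6 control arrays, a difference of 2.14 ± 0.20 (adjusted p = 6.24e-05). The arrays of each arm spread over more than the gap, and its wild-type level was in the background range. EDIL3, a secreted ligand of integrins, had 12.16, 12.40 and 12.54 in the hHSS1 arrays, against 10.96, 11.10 and 11.22 in the control arrays (1.29 ± 0.06, adjusted p = 2.35e-07). Both clones were high and both control lines low, and the arrays of each arm lay close together. CLDN1, the tight junction protein claudin-1, had 11.26, 11.44 and 11.74 in the hHSS1 arrays, against 10.16, 10.30 and 10.37 in the control arrays (1.17 ± 0.08, adjusted p = 5.57e-06, gap 0.89). BICC1, an RNA-binding protein, had 9.33, 9.60 and 9.66 in the hHSS1 arrays, against 8.10, 8.29 and 8.60 in the control arrays (1.24 ± 0.06, adjusted p = 2.35e-07, gap 0.72). In EDIL3, CLDN1 and BICC1 the arrays of an arm lay closer to each other than to the other arm. C2orf15, an open reading frame with no role named here, had the fifth widest gap (0.63), with levels of 6.66, 6.86 and 7.50 in the hHSS1 arrays and 5.43, 5.90 and 6.02 in the control arrays. Most of these levels lay in the background range.

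Among the lower genes, B3GALT1 had the widest gap (0.75). It encodes a galactosyltransferase that builds sugar chains of glycolipids and glycoproteins. Its levels were 7.87, 8.41 and 8.85 in the hHSS1 arrays, against 9.60, 9.83 and 10.20 in the control arrays (-1.48 ± 0.13, adjusted p = 2.43e-05). RGS16, which speeds the shut-off of G proteins, had 9.58, 9.78 and 9.90 in the hHSS1 arrays, against 10.62, 10.86 and 11.01 in the control arrays (-1.06 ± 0.08, adjusted p = 9.66e-06, gap 0.72). Both genes were low in all 6 hHSS1 arrays and high in all 6 control arrays. PLCXD3, a member of the phospholipase C family, had 7.92, 8.13 and 8.14 in the hHSS1 arrays, against 8.83, 9.03 and 9.26 in the control arrays (-0.94 ± 0.07, adjusted p = 9.66e-06, gap 0.69). CHRM3, the muscarinic acetylcholine receptor M3, had 7.28, 7.85 and 8.09 in the hHSS1 arrays, against 8.72, 9.00 and 9.42 in the control arrays (-1.27 ± 0.13, adjusted p = 9.47e-05, gap 0.63). XIRP2, an actin-binding protein of striated muscle, was in the background range in both clones (6.22, 6.77 and 7.05) and above it in the control arrays (7.74, 8.17 and 8.34). Its difference was -1.41 ± 0.11 (adjusted p = 1.4e-05, gap 0.69), and its size is uncertain for that reason. The study also measured XIRP2 by quantitative RT-PCR and reported that the result differed from its arrays in both clones. It reported this for no other gene it checked that way. CHRM3 and RGS16 were the 2 of 21 listed G protein receptors and regulators called lower, 0 were called higher, and the median of that list was -0.05. The list does not hold every such receptor. Outside it, GPR63 was called higher (1.19). MC4R (-1.06, arms overlapping), CALCRL (-0.63, arms overlapping, in the background range in all lines) and GRPR were called lower. GRPR lost its call against either control line alone. In all, 8 genes higher and 10 lower had a gap over 0.5.

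**Figure D2:**
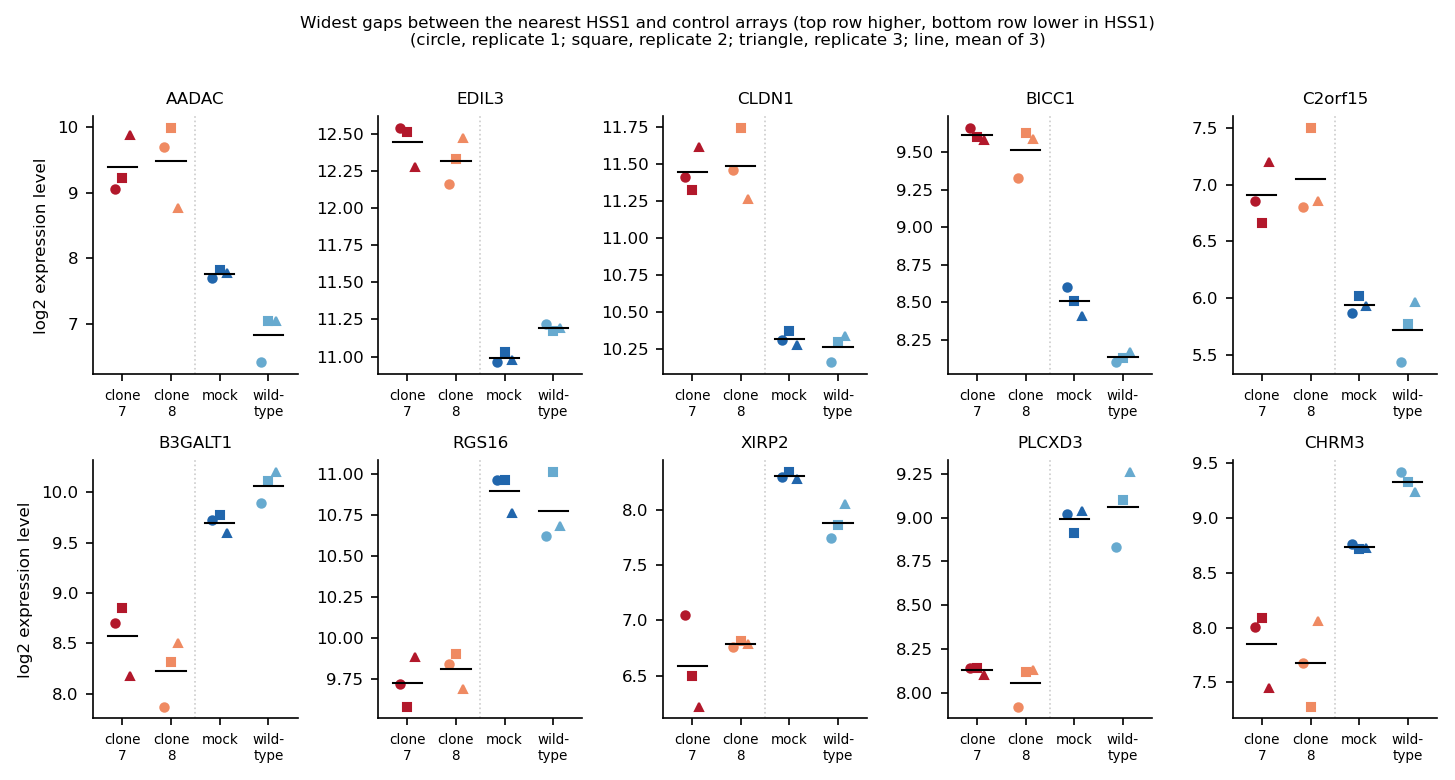
Log2 expression level (vertical axis) on each array of clone 7, clone 8, mock and wild-type cells (horizontal axis) for the 5 higher genes (top row) and the 5 lower genes (bottom row) with the widest gap; a circle is replicate 1, a square replicate 2, a triangle replicate 3 and a line the mean of 3. AADAC and EDIL3 had a gap of 0.95, and B3GALT1 a gap of 0.75.

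Adhesion and surface proteins were among the genes with the largest rises. In the list of cell-cell junction and cadherin genes, 4 of 29 measured genes were called higher and 1 lower, 6 lay wholly above and 1 below the control arrays, and the median difference was 0.10. Beside CLDN1, these were JAM2, CDH10 and CD24. JAM2, a junctional adhesion molecule, had 10.65, 10.82 and 10.93 in the hHSS1 arrays, against 9.26, 9.80 and 10.36 in the control arrays (1.01 ± 0.06, adjusted p = 1.25e-06). Mock was its lowest line, with a difference of 1.48 against mock and 0.53 against wild-type, and it was not called against wild-type alone. CDH10, a cadherin of neurons, had 7.99, 8.18 and 8.66 in the hHSS1 arrays, against 6.92, 7.25 and 7.43 in the control arrays (1.07 ± 0.12, adjusted p = 0.000205). CD24, a small sialoglycoprotein anchored in the membrane, had 8.32, 9.32 and 9.75 in the hHSS1 arrays, against 7.76, 7.91 and 8.27 in the control arrays (1.25 ± 0.17, adjusted p = 0.00086). Sequences nearly identical to CD24 lie elsewhere in the genome, which leaves its value uncertain. The called lower member was the protocadherin PCDH18 (-0.89 ± 0.16, adjusted p = 0.00457), which was not called against mock alone (-0.65) or with clone 7 alone (-0.67).

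Outside that list, TSPAN8, a tetraspanin, had 8.08, 8.84 and 9.77 in the hHSS1 arrays, against 6.92, 7.42 and 7.80 in the control arrays (1.52 ± 0.19, adjusted p = 0.000406). AMTN, which encodes the enamel protein amelotin, had 9.66, 10.35 and 10.77 in the hHSS1 arrays, against 8.41, 8.93 and 9.29 in the control arrays (1.42 ± 0.16, adjusted p = 0.000205). The arms were separate, with a gap of 0.28 for TSPAN8 and 0.37 for AMTN, although the hHSS1 arrays themselves spread over more than 1 unit. The actin gene ACTA2, the smooth muscle form, read 10.96, 11.25 and 11.52 in the hHSS1 arrays, against 9.77, 10.22 and 10.54 in the control arrays (1.06 ± 0.11, adjusted p = 0.000126). Of the 21 contractile and actin filament genes, 1 was called higher and 2 lower, and the median was 0.06. The called lower genes were XIRP2 and TMOD1, which caps actin filaments (-0.72 ± 0.07, adjusted p = 7.17e-05). LGR5, a receptor for R-spondins, was higher by 1.14 ± 0.20 (adjusted p = 0.0035) with its mock level in the background range, and the lipoprotein receptor OLR1 by 0.85 ± 0.09 (adjusted p = 0.00011), which was not called against mock alone (0.48).

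The largest fall was in GPM6A, a membrane glycoprotein of neurons that promotes outgrowth of neurites. It read 7.50, 7.29 and 10.16 in clone 7 and 9.94, 10.02 and 7.53 in clone 8, against 10.45, 10.43 and 10.38 in mock and 12.21, 12.09 and 12.13 in wild-type cells. The hHSS1 arrays fell into a low level and a level close to mock, with the array labelled clone 7 replicate 3 beside clone 8 replicates 1 and 2, and the array labelled clone 8 replicate 3 beside clone 7 replicates 1 and 2. The difference was -2.54 ± 0.50 (adjusted p = 0.0066), made up of -1.68 against mock and -3.40 against wild-type, and the call was lost against mock alone. Other genes split the same arrays. RASGRP1, an activator of Ras, read 7.85, 7.80 and 9.63 in clone 7 and 9.13, 9.69 and 7.92 in clone 8, against 7.37 to 7.47 in mock and 6.95 to 7.13 in wild-type cells. Its difference was 1.44 ± 0.33 (adjusted p = 0.0134). The receptor gene GPR63, whose ligand is not settled, read 8.27, 7.98 and 9.56 in clone 7 and 9.36, 9.58 and 8.08 in clone 8, with a highest control array of 7.82 (1.19 ± 0.28, adjusted p = 0.0164). In both genes the lower hHSS1 arrays still lay above every control array. Both calls were lost against mock alone (1.25 for RASGRP1 and 1.08 for GPR63) and with clone 7 alone. FSTL5, a follistatin-like secreted protein, read 6.44, 7.13 and 7.64 in the hHSS1 arrays, against 8.18, 8.30 and 8.47 in the control arrays (-1.21 ± 0.19, adjusted p = 0.00172), with its clone 7 level in the background range. The uncharacterized LOC101928697 (-1.24 ± 0.19, adjusted p = 0.00132) and CPED1 (-1.10 ± 0.26, adjusted p = 0.0156) completed the 12 largest falls with separate arms, and CPED1 was not called against mock alone (-0.92) or with clone 7 alone.

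**Figure D3:**
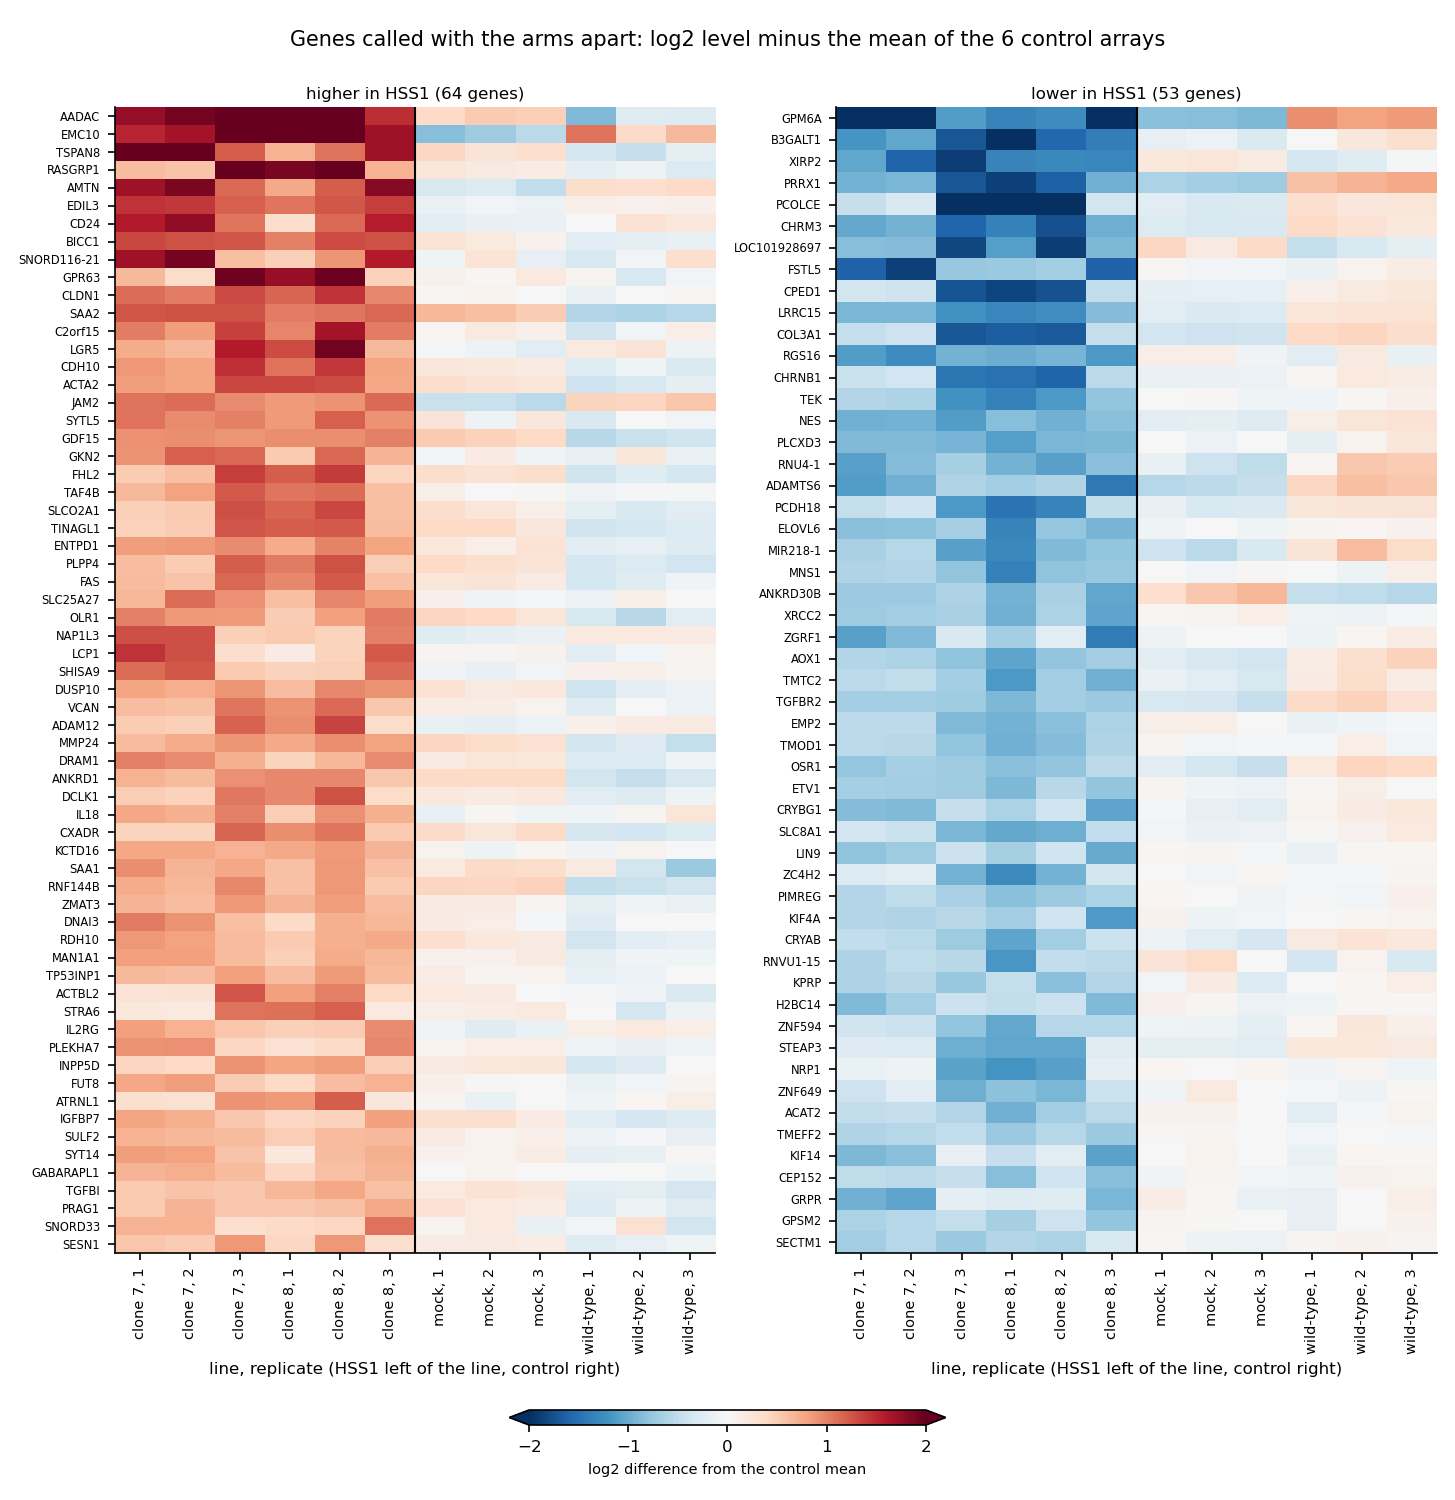
Log2 level minus the mean of the 6 control arrays (colour) for the 64 higher genes (left panel) and the 53 lower genes (right panel) called with separate arms, 1 row a gene and 1 column an array, the hHSS1 arrays left of the black line. In GPM6A, RASGRP1, GPR63 and PCOLCE the columns of clone 7 replicate 3 and clone 8 replicate 3 resemble the arrays of the other clone.

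Genes of the extracellular matrix moved both ways. Of 36 measured genes, 2 were called higher and 2 lower, 9 were higher and 7 lower at the adjusted p alone, and the median difference was 0.00. Without the replicate 3 arrays of both clones, 2 were called higher and 4 lower, and 9 were higher and 11 lower at the adjusted p alone. Beside EDIL3, the called higher member was VCAN, the proteoglycan versican (10.34, 10.56 and 10.93 in the hHSS1 arrays, against 9.55, 9.83 and 9.95 in the control arrays; 0.81 ± 0.11, adjusted p = 0.000525). The called lower members were LRRC15 and COL3A1. LRRC15, a membrane protein of mesenchymal cells with leucine-rich repeats, read 11.60, 11.83 and 12.04 in the hHSS1 arrays, against 12.61, 12.91 and 13.18 in the control arrays (-1.07 ± 0.08, adjusted p = 8.81e-06), and both clones were below both control lines. COL3A1, the chain of type III collagen, read 11.28, 11.34 and 10.04 in clone 7 and 10.11, 10.07 and 11.28 in clone 8, with a lowest control array of 11.35 (-1.07 ± 0.24, adjusted p = 0.0125). The arms met almost exactly there, and the call was lost against mock alone (-0.68) and with clone 7 alone. PCOLCE, outside that list, which enhances the enzyme that trims procollagens, read 12.02, 12.17 and 10.37 in clone 7 and 10.10, 10.18 and 12.11 in clone 8, against 12.25, 12.18 and 12.19 in mock and 12.82, 12.71 and 12.72 in wild-type cells. Its 3 high hHSS1 arrays lay just under mock, with a gap of 0.01. Its difference was -1.32 ± 0.36 (adjusted p = 0.0309), and the call was lost without clone 8 replicate 1 (-1.14) and without any 1 of the 6 control arrays (-1.30 to -1.33). It was also lost against mock alone (-1.05), with clone 7 alone (-0.96), with the line as a random block (adjusted p = 0.0632) and with the replicate block (adjusted p = 0.0655). The collagen chain COL1A2 (-1.09 ± 0.37, adjusted p = 0.0749) and the matrix protein POSTN (-1.42 ± 0.63, adjusted p = 0.169) did not pass. COL1A2 was at -0.57 against mock and -1.61 against wild-type, and POSTN at -0.44 against mock and -2.40 against wild-type.

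PRRX1, a homeobox factor of mesenchyme, read 9.28, 9.85 and 10.24 in the hHSS1 arrays, against 10.43, 11.13 and 11.91 in the control arrays (-1.33 ± 0.16, adjusted p = 0.000282). PRRX1 was at -0.66 against mock and -2.01 against wild-type and was not called against mock alone, while LRRC15 was at -0.81 against mock and -1.34 against wild-type. Of 5 fibroblast markers, COL3A1 was called lower, COL1A1 passed the adjusted p alone (-0.37, adjusted p = 0.00498; -0.01 against mock), and COL1A2, PDGFRB (-0.18, adjusted p = 0.241) and THY1 (-0.02, adjusted p = 0.89) did not pass. In a longer list of 11 fibroblast and mesenchymal markers, 1 was called higher, ACTA2, and 1 lower, and 3 were called lower without the replicate 3 arrays of both clones. The mean level of the 5 markers was 10.67 to 11.57 in the hHSS1 arrays, 11.35 to 11.44 in mock and 11.87 to 11.98 in wild-type cells, and none of the 5 was in the background range. The part of these markers in the matrix result was not tested. By the labels every sample was a culture of A172 cells or of a line made from them, with no other cell type named. In bulk RNA of such a culture, fewer cells that express these markers and less RNA per cell cannot be told apart. Among proteases and inhibitors of invasion, 1 of 25 was called higher, the metalloproteinase ADAM12, and 0 lower, with a median of 0.11. ADAM12 read 9.24, 9.59 and 10.23 in the hHSS1 arrays, against 8.70, 8.86 and 9.05 in the control arrays (0.80 ± 0.15, adjusted p = 0.00586). The membrane metalloproteinase MMP24, outside that list, rose by 0.80 ± 0.06 (adjusted p = 8.81e-06) but was not called against mock alone (0.43). Of 23 genes of cell movement and integrins 1 was called lower, the tetraspan protein EMP2 (-0.72 ± 0.07, adjusted p = 9.83e-05), and 0 higher, with a median of 0.05.

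The markers of the labelled cells were read as well. Of the 9 glioma and astroglial markers, VIM, CD44 and SOX9 were well above the background range in all lines, while S100B, AQP4 and FABP7 lay below the lower quartile in all 4. NES, the intermediate filament nestin of neural stem cells, was the 1 called member: 8.74, 8.91 and 9.03 in the hHSS1 arrays, against 9.60, 9.84 and 10.16 in the control arrays (-0.95 ± 0.05, adjusted p = 7.42e-07). The stem cell factor SOX2 lay below the control arrays in all 6 hHSS1 arrays (-0.45 ± 0.06, adjusted p = 0.000775), under the fold limit. Of the 18 glioma stem and astroglial genes, 1 was called lower, 0 higher and 3 lay wholly below, and the median was 0.06. Of 5 endothelial markers, PECAM1 and EMCN were in the background range in all lines, the line means of CDH5, VWF and CLDN5 lay between 7.49 and 8.90, and 0 were called. Of 5 leukocyte markers, LYZ was in the background range in all lines, and CD3E was near it, with line means of 6.90 to 7.14. PTPRC had line means of 7.08 to 7.74 and was lower at the adjusted p alone (-0.44, limma adjusted p = 0.0454). CD68 had line means of 11.30 to 11.63 and CD14 of 8.10 to 8.28, and 0 of the 5 were called. Of 5 epithelial markers, the keratins KRT8 and KRT18 were bright in all lines, between 13.21 and 13.80 over all arrays. The line means of the other markers lay below the array medians. They were 7.19 to 7.39 for CDH1, 7.62 to 7.85 for EPCAM and 8.06 to 8.16 for KRT5. Of the 5, 0 were called.

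Signalling genes moved in both directions. DUSP10, a phosphatase that switches off the stress kinases p38 and JNK, read 10.39, 10.61 and 10.74 in the hHSS1 arrays, against 9.38, 9.80 and 10.08 in the control arrays (0.81 ± 0.07, adjusted p = 2.43e-05). ETV1, an ETS factor that ERK signalling activates, differed by -0.72 ± 0.06 (adjusted p = 2.2e-05), with 9.14, 9.34 and 9.49 in the hHSS1 arrays and 9.93, 10.05 and 10.16 in the control arrays. The list of ERK output genes held 24 genes, of which 1 was called higher and 1 lower, 9 were higher and 2 lower at the adjusted p alone, and the median was 0.13. DUSP10 was not called against mock alone (0.58). TEK, the receptor of the angiopoietins, read 8.75, 9.13 and 9.52 in the hHSS1 arrays, against 10.02, 10.12 and 10.20 in the control arrays (-0.95 ± 0.11, adjusted p = 0.000312). NRP1, a co-receptor of VEGF, read 11.81, 11.85 and 10.88 in clone 7 and 10.76, 10.87 and 11.75 in clone 8, just below the control arrays (11.87 to 12.01). Its difference was -0.63 ± 0.19 (adjusted p = 0.0452), a call lost without any 1 of 9 arrays, namely clone 7 replicate 3 (-0.47), clone 8 replicates 1 and 2 (-0.54 and -0.56) and each control array (-0.61 to -0.64). TEK and NRP1 were the 2 of 20 factors that promote angiogenesis called lower, and 0 were called higher, with a median of 0.07. Of 14 factors that restrain it, 0 were called, 2 were higher and 3 lower at the adjusted p alone, and the median was 0.03. Of 22 axon guidance genes 1 was called higher, the Slit receptor ROBO1 (0.67 ± 0.13, adjusted p = 0.00687, arms overlapping), and NRP1 lower, with a median of 0.06. ROBO1 was at 1.07 against mock and 0.28 against wild-type, and it was not called against wild-type alone. The list does not hold every guidance gene. Outside it, the receptor NEO1 (0.79) and the semaphorin SEMA7A (0.64) were called higher, both with overlapping arms. NEO1 was not called against wild-type alone (0.53) or with clone 7 alone (0.71).

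Of 27 genes of the TGF-beta and BMP pathway, 2 were called higher and 1 lower, 13 were higher and 1 lower at the adjusted p alone, and the median was 0.17. The receptor TGFBR2 was lower, with 10.06, 10.26 and 10.28 in the hHSS1 arrays and 10.49, 10.94 and 11.41 in the control arrays (-0.73 ± 0.05, adjusted p = 6.86e-06). TGFBI, a matrix protein that TGF-beta induces, was higher by 0.61 ± 0.05 (adjusted p = 1.38e-05). It was not called without clone 8 replicate 2 (0.58) or wild-type replicate 3 (0.58). The third called gene was the signal transducer SMAD3 (0.63 ± 0.06, adjusted p = 5.9e-05), whose arms overlapped, at 0.08 against mock and 1.18 against wild-type, and it was not called against mock alone, without wild-type replicate 1 (0.58) or with the line as a random block (adjusted p = 0.10). TGFBR2 differed by -0.36 against mock and -1.11 against wild-type, and neither it nor TGFBI was called against mock alone. GDF15, a secreted member of the same superfamily that stress and p53 induce, read 12.34, 12.38 and 12.46 in the hHSS1 arrays, against 10.90, 11.45 and 11.98 in the control arrays (0.93 ± 0.04, adjusted p = 2.35e-07). The 6 hHSS1 arrays lay close together, and their mean was 0.47 above mock and 1.39 above wild-type.

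Cytokines and complement had 5 of 29 genes called higher and 0 lower, 9 higher and 0 lower at the adjusted p alone, and a median of 0.14. SAA2, an acute-phase protein, read 10.14, 10.32 and 10.40 in the hHSS1 arrays, against 8.49, 9.09 and 9.79 in the control arrays (1.17 ± 0.04, adjusted p = 4.62e-08). IL18, a cytokine activated by the inflammasome, read 10.02, 10.28 and 10.54 in the hHSS1 arrays, against 9.39, 9.50 and 9.78 in the control arrays (0.77 ± 0.08, adjusted p = 0.000138). SAA1 (0.74 ± 0.13, adjusted p = 0.00301) and IL2RG, the shared gamma chain of interleukin receptors (0.67 ± 0.08, adjusted p = 0.000299), also rose with separate arms. SAA1 and SAA2 are near-identical and their values are uncertain. The SAA2 difference was 0.58 against mock and 1.76 against wild-type, SAA1 and SAA2 were not called against mock alone, and IL2RG was not called against wild-type alone (0.52). The fifth was C3, whose arms overlapped. Interferon-stimulated genes had 0 of 22 called, 0 higher and 5 lower at the adjusted p alone, and a median of -0.08, with the antiviral enzyme OAS3 at -0.46 (adjusted p = 0.00193). Over all genes 5.12% were higher and 6.94% lower at the adjusted p alone.

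Most targets of p53, the factor that halts division after DNA damage, were higher in the hHSS1 arrays. Of 23 measured targets, 5 were called higher and 0 lower, 17 were higher and 0 lower at the adjusted p alone, 14 lay wholly above the control arrays and 0 below, and the median was 0.34. Over all genes 0.489% were called higher, 5.12% were higher at the adjusted p alone and 2.55% lay wholly above. Beside GDF15, the called members were FAS, ZMAT3, TP53INP1 and SESN1. The death receptor FAS read 10.28, 10.51 and 10.95 in the hHSS1 arrays, against 9.37, 9.76 and 9.97 in the control arrays (0.86 ± 0.12, adjusted p = 0.000731). ZMAT3, an RNA-binding protein, read 11.76, 11.83 and 12.01 in the hHSS1 arrays, against 10.96, 11.13 and 11.33 in the control arrays (0.72 ± 0.06, adjusted p = 1.38e-05). TP53INP1, which promotes autophagy and cell death under stress, read 10.84, 10.87 and 11.08 in the hHSS1 arrays, against 10.07, 10.25 and 10.38 in the control arrays (0.69 ± 0.06, adjusted p = 2.02e-05). In these 3 genes all hHSS1 arrays lay above all control arrays, with gaps of 0.31, 0.43 and 0.45 for FAS, ZMAT3 and TP53INP1. Mock in turn lay above wild-type cells in each of them. SESN1, which restrains growth signalling, rose by 0.59 ± 0.09 (adjusted p = 0.00132), a call lost without clone 7 replicate 3 (0.54), clone 8 replicate 2 (0.51) or wild-type replicate 1 (0.57). CDKN1A, the inhibitor p21 of cyclin-dependent kinases, was higher by 0.48 ± 0.06 (adjusted p = 0.000525) with separate arms. TP53I3 (0.55), RRM2B (0.41) and MDM2 (0.34), the ubiquitin ligase of p53, were likewise above all control arrays but under the fold limit. Without the replicate 3 arrays of both clones, 5 targets were called, 19 were higher at the adjusted p alone and the median was 0.35. Against mock alone GDF15 (0.47), ZMAT3 (0.58) and SESN1 (0.43) were not called. The control lines differed over the list as a whole. The mean of the 23 targets was 10.30 to 10.40 in wild-type arrays, 10.53 to 10.59 in mock and 10.76 to 10.96 in the hHSS1 arrays.

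**Figure D4:**
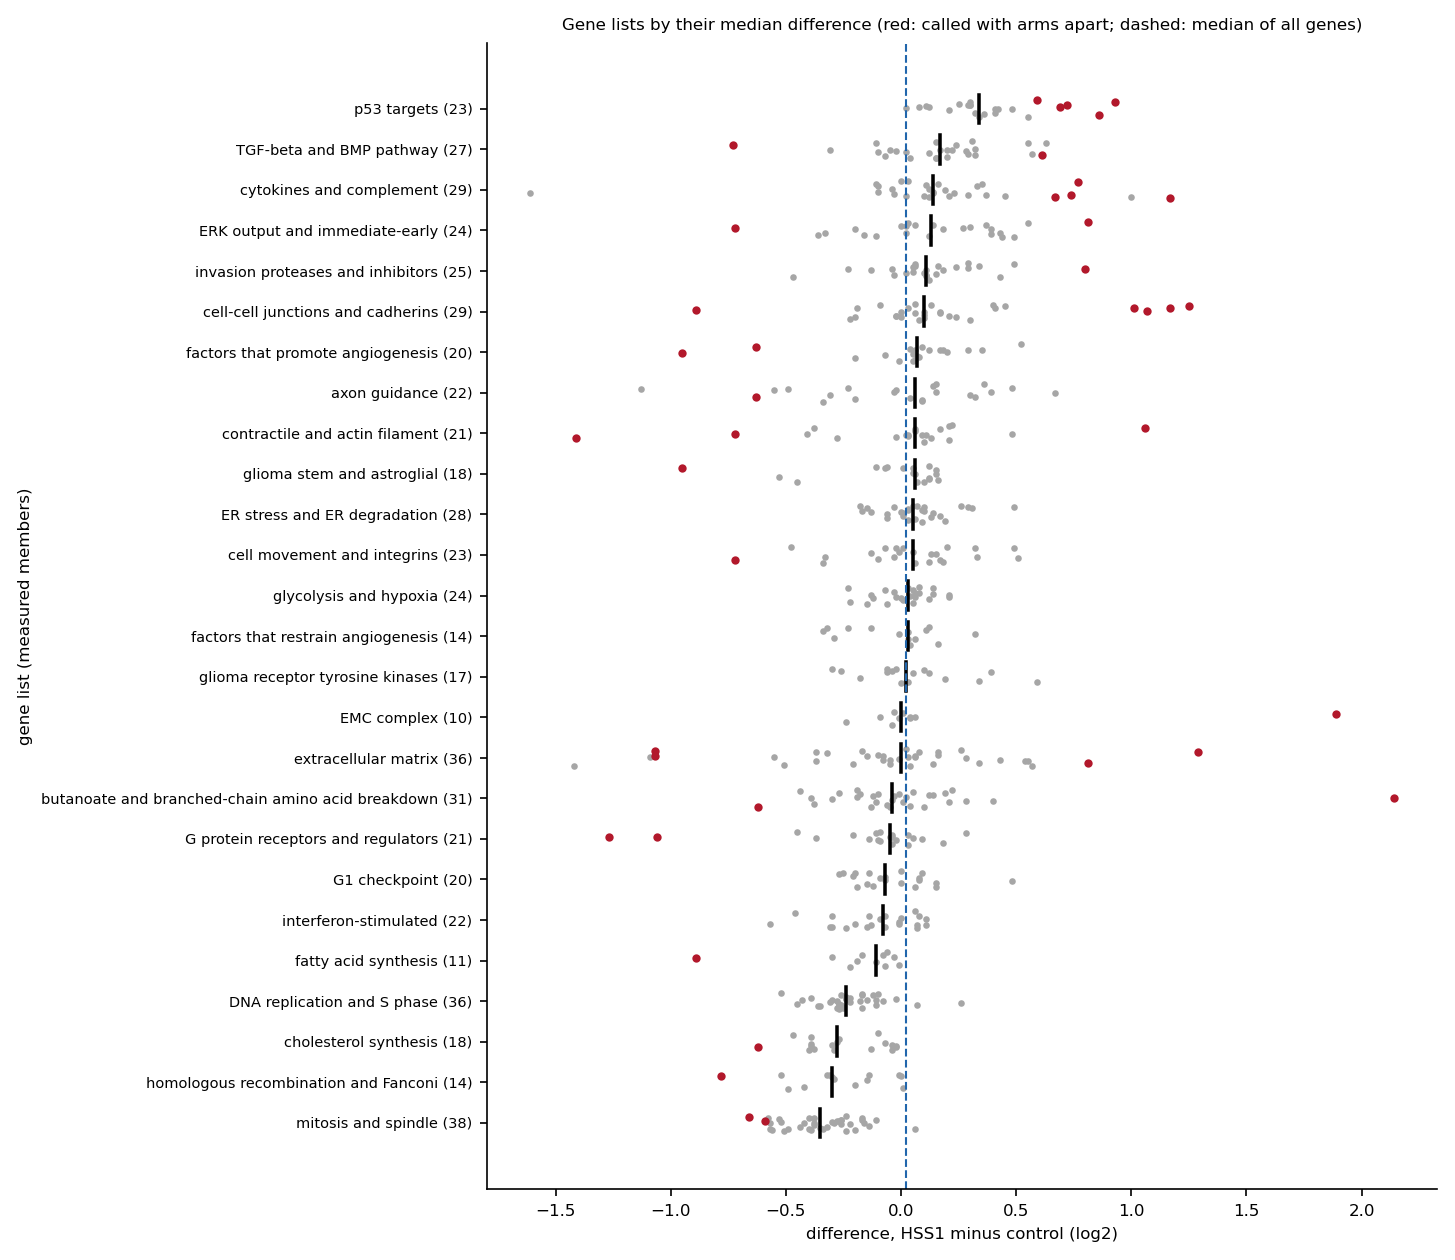
Log2 difference of hHSS1 minus control (horizontal axis) for each measured gene of 26 gene lists (vertical axis, number of measured genes in brackets), with genes called with separate arms in red, the list median as a black bar and the median of all genes, 0.02, as a dashed line. The p53 targets have the highest median (0.34) and mitosis the lowest (-0.35).

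Most genes of mitosis and the spindle were lower in the hHSS1 arrays, by less than the fold limit in all but 2. Of 38 measured genes, 30 were lower and 0 higher at the adjusted p alone, 23 lay wholly below the control arrays and 0 above, and the median was -0.35. Over all genes 6.94% were lower at the adjusted p alone and 4.27% lay wholly below. PIMREG, a mitotic regulator, and GPSM2, which links the spindle to the cell cortex, were the 2 called lower. PIMREG read 10.83, 11.03 and 11.17 in the hHSS1 arrays, against 11.61, 11.66 and 11.77 in the control arrays (-0.66 ± 0.05, adjusted p = 1.38e-05), at -0.66 against mock and -0.66 against wild-type. GPSM2 read 10.01, 10.20 and 10.39 in the hHSS1 arrays, against 10.63, 10.82 and 10.88 in the control arrays (-0.59 ± 0.07, adjusted p = 0.000224). It was not called without clone 7 replicate 1, clone 8 replicate 1 or 3, mock replicate 1, or wild-type replicate 2 or 3 (-0.55 to -0.58). KIF4A, a motor on chromosome arms that the list does not hold, fell by 0.66 ± 0.10 (adjusted p = 0.0011) and was not called without clone 8 replicate 3 (-0.56) or without the replicate 3 arrays of both clones (-0.57). PRC1, which bundles the midzone microtubules that KIF4A works on, read 11.87, 12.09 and 12.19 in the hHSS1 arrays, against 12.43, 12.49 and 12.53 in the control arrays (-0.42 ± 0.06, adjusted p = 0.000756). CCNB2, a cyclin of mitotic entry, read 11.22, 11.39 and 11.58 in the hHSS1 arrays, against 11.76, 11.79 and 11.84 in the control arrays (-0.38 ± 0.06, adjusted p = 0.00261). The control arrays of both genes lay close together, and each hHSS1 array was below them. SHCBP1 (-0.58), KIF15 (-0.57), SGO2, which guards the cohesion of chromatids (-0.57), ERCC6L (-0.56), SMC2, a condensin subunit (-0.53), the checkpoint kinase BUB1B (-0.49) and CCNB1 (-0.34) also had separate arms. TOP2A (-0.11, adjusted p = 0.362) and the proliferation marker MKI67 (0.06, adjusted p = 0.55) did not pass. MKI67 was at 0.36 against mock and -0.24 against wild-type, and mock minus wild-type was -0.59 (limma adjusted p = 0.00282). Without the replicate 3 arrays of both clones, 34 of the 38 were lower at the adjusted p alone, 24 lay wholly below and the median was -0.33.

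Promoters of mitotic genes are known for the CHR element TTTGAA and for CCAAT boxes, through which cell cycle complexes act. The promoters of CCNB2, PRC1 and GPSM2 are shown because all 3 had separate arms and hold both motifs. They are RefSeq sequences of GRCh38.p14, 250 bases before to 50 bases after the gene's start, on the gene's strand, with TTTGAA and CCAAT (or ATTGG, the same box on the other strand) in capitals. CCNB2 lies at chr15:59104896-59105195 on the plus strand, PRC1 at chr15:90994486-90994785 on the minus strand and GPSM2 at chr1:108876735-108877034 on the plus strand.
CCNB2: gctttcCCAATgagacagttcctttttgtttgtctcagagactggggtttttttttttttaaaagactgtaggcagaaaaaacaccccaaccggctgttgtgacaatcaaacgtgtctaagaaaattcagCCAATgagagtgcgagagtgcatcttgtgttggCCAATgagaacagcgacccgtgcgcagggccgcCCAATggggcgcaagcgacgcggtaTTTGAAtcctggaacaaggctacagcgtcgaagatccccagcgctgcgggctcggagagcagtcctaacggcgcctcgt
PRC1: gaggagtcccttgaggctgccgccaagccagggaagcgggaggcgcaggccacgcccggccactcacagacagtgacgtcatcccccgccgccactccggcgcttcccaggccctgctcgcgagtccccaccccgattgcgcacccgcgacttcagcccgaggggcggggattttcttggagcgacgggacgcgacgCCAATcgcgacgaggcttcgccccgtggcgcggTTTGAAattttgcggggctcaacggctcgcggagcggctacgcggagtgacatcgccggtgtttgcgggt
GPSM2: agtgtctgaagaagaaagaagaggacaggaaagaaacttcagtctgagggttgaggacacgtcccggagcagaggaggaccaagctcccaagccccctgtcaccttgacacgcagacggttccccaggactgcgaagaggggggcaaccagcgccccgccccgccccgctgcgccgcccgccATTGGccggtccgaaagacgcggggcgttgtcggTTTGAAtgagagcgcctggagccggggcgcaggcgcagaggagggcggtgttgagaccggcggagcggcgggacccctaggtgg
Both strands of each promoter were searched for the letters TTTGAA and CCAAT, which do not contain each other. CCNB2 held 4 CCAAT boxes upstream of its TTTGAA, and PRC1 and GPSM2 1 each. Of the 23 mitotic genes with separate arms, 19 had a promoter in the table, and 13 of these 19 (68.4%) held TTTGAA, against 1696 of 14237 (11.9%) of all genes tested. CCAAT was in 13 of the 19 (68.4%), against 36.3% of all. Over all mitotic genes measured, whether their arms were separate or not, TTTGAA was in 25 of 33 (75.8%) and CCAAT in 23 of 33 (69.7%), so that the share was not particular to those with separate arms. In 32 genes of DNA replication TTTGAA was in 1 (3.12%) and CCAAT in 19 (59.4%). Of the 53 called lower genes with separate arms, 43 had a promoter there, and TTTGAA was in 11 (25.6%), against 10 of 47 (21.3%) for the called higher ones. A match is a description of letters and not a site in use.

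DNA replication genes had 0 of 36 called, 19 lower and 0 higher at the adjusted p alone, 12 wholly below the control arrays and a median of -0.24. MCM10, which helps to start replication forks, was at -0.52 ± 0.06 (adjusted p = 0.000394), MCM6, a subunit of the replicative helicase, at -0.45, and the cyclin CCNA2 at -0.43. All 3 had separate arms. Homologous recombination and Fanconi genes had 1 of 14 called lower and 0 higher, 7 lower at the adjusted p alone and a median of -0.30. The called gene was XRCC2, which serves repair by homologous recombination, with 10.06, 10.41 and 10.48 in the hHSS1 arrays and 10.99, 11.11 and 11.24 in the control arrays (-0.78 ± 0.06, adjusted p = 1.81e-05). Both clones were below both control lines by a gap of 0.51. The nuclease EXO1 (-0.52) and BARD1 (-0.49), the partner of BRCA1, had separate arms under the fold limit, while BRCA1 itself (-0.31 ± 0.07, adjusted p = 0.015) overlapped. Outside these lists, LIN9, a subunit of the complex that drives mitotic genes, was at -0.67 ± 0.10 (adjusted p = 0.001, called). EZH2, a histone methyltransferase of the Polycomb complex and a member of the glioma stem list, was at -0.53 ± 0.05 (adjusted p = 0.000107) under the fold limit. The 20 genes of the G1 checkpoint had 0 called, 1 higher and 4 lower at the adjusted p alone, and a median of -0.07. By that adjusted p, 5.12% of all genes were higher and 6.94% lower.

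Genes of cholesterol synthesis were mostly lower as well. Of 18 cholesterol synthesis genes, 1 was called lower, 11 were lower and 0 higher at the adjusted p alone, 9 lay wholly below the control arrays and the median was -0.28. The called gene was ACAT2, a thiolase at the start of the pathway, with 9.16, 9.56 and 9.65 in the hHSS1 arrays and 9.90, 10.15 and 10.20 in the control arrays (-0.62 ± 0.07, adjusted p = 0.000243). It was not called without clone 8 replicate 1 (-0.56). FDPS, which makes farnesyl diphosphate (-0.47), the synthase HMGCS1 (-0.39) and INSIG1, a sterol sensor (-0.38), had separate arms under the fold limit. Of 11 fatty acid synthesis genes, 1 was called lower and 4 were lower at the adjusted p alone, with a median of -0.11. This gene was ELOVL6, which extends saturated chains: it read 9.80, 10.31 and 10.48 in the hHSS1 arrays, against 11.05, 11.16 and 11.22 in the control arrays (-0.89 ± 0.08, adjusted p = 4.53e-05). Its arms lay 0.57 apart. Fatty acid synthase, FASN, differed by -0.30 ± 0.05 (adjusted p = 0.00266) with separate arms. The 31 genes of butanoate and branched-chain amino acid breakdown had AADAC called higher and ACAT2 called lower, 3 higher and 6 lower at the adjusted p alone, and a median of -0.04. Of 24 glycolysis and hypoxia genes 0 were called, 3 were lower at the adjusted p alone and the median was 0.03. Of 28 genes of stress and degradation in the endoplasmic reticulum 0 were called, 3 were higher and 1 lower at the adjusted p alone, and the median was 0.05. HERPUD1, which serves that degradation, was above all control arrays (0.29 ± 0.04, adjusted p = 0.000536), as was the stress factor ATF3 (0.49 ± 0.09, adjusted p = 0.00418), and the chaperone HSPA5 was at 0.09 (adjusted p = 0.25).

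Small RNA loci appeared in both directions. The probe set of MIR218-1 read 8.01, 8.46 and 8.72 in the hHSS1 arrays, against 8.76, 9.27 and 9.91 in the control arrays (-0.87 ± 0.11, adjusted p = 0.000393). The difference was -0.46 against mock, where the call was lost, and -1.29 against wild-type. The locus (chr4:20528275-20528384, GRCh38.p14) lies within the span of SLIT2 (chr4:20251905-20620561), which encodes a ligand of the axon guidance receptors of the Robo family. SLIT2 read 11.37, 11.83 and 12.16 in the hHSS1 arrays, against 12.09, 12.29 and 12.51 in the control arrays (-0.49 ± 0.12, adjusted p = 0.0191), with overlapping arms. The other locus of the same miRNA, MIR218-2, did not pass (0.11 ± 0.06, adjusted p = 0.237). The probe set covers the locus of the precursor, so that precursor and host transcript cannot be told apart, and the mature miRNA was not measured on its own. The mature sequences of MIR218-1 in RefSeq (GRCh38.p14, plus strand) are shown with the seed, bases 2 to 8, in capitals, because the seed sets the targets of a miRNA.
hsa-miR-218-5p: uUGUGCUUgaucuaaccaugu
hsa-miR-218-1-3p: aUGGUUCCgucaagcaccaugg
The first lies at chr4:20528299-20528319 and the second at chr4:20528342-20528363, and their seeds differ.

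SNORD116-21, a C/D box small nucleolar RNA of the imprinted cluster on chromosome 15, read 7.05, 7.81 and 8.49 in the hHSS1 arrays, against 6.26, 6.51 and 6.92 in the control arrays (1.19 ± 0.23, adjusted p = 0.00635). Both control lines were in the background range. Of 20 measured copies of SNORD116, 4 were called higher (SNORD116-14, SNORD116-15, SNORD116-20 and SNORD116-21) and 0 lower, 1 had separate arms, 20 of 20 had positive differences and the median was 0.50. Their mean over the copies was 6.69 to 7.73 in the hHSS1 arrays, against 6.63 to 6.89 in the control arrays, and 12 copies were in the background range in all lines. The copies are near-identical and their values are uncertain. The calls of SNORD116-14 (0.89) and SNORD116-20 (0.79) were lost without any 1 of most arrays, and that of SNORD116-15 (0.76) without clone 8 replicate 3 (0.58).

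In 43 called genes, 26 higher and 17 lower, the arms overlapped, and several of the largest stood differently against mock and against wild-type. EFEMP1, a matrix glycoprotein of the fibulin family, read 10.31, 10.82 and 11.15 in the hHSS1 arrays, against 8.68, 9.73 and 10.66 in the control arrays (1.10 ± 0.12, adjusted p = 0.000194). Its difference was 0.19 against mock and 2.00 against wild-type. C3, the central component of complement, had the same form, with 1.0 ± 0.14 (adjusted p = 0.00084), 0.16 against mock and 1.84 against wild-type. So did ROR1, a receptor of Wnt5a (1.03 ± 0.15, adjusted p = 0.00112; 0.45 and 1.60). In these genes mock lay nearer to the clones than wild-type did, and none of the 3 was called against mock alone. The ubiquitin ligase FBXO32 read 10.15, 10.33 and 8.70 in clone 7 and 8.47, 8.85 and 10.24 in clone 8, against 8.87 to 9.03 in mock and 7.85 to 8.00 in wild-type cells. Its difference (1.02 ± 0.31, adjusted p = 0.0487) was 0.51 against mock and 1.53 against wild-type, and it was not called against mock alone or without any 1 of 9 arrays, namely clone 7 replicates 1 and 2 (0.91 and 0.87), clone 8 replicate 3 (0.76) and each control array (1.0 to 1.04). The reverse held for the zinc finger gene ZNF22 (0.92 ± 0.17, adjusted p = 0.00451), at 1.62 against mock and 0.22 against wild-type, with its mock level in the background range, and for the X-linked FAM133A (0.90; 1.48 and 0.31), neither of which was called against wild-type alone. With the line as a random block, EFEMP1, C3 and ZNF22 lost their calls, as did FBXO32.

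Among the lower genes with overlapping arms, CCDC102B, a coiled-coil protein, read 6.24, 6.44 and 6.58 in the hHSS1 arrays, against 5.96, 7.94 and 10.08 in the control arrays (-1.56 ± 0.08, adjusted p = 7.42e-07). The whole difference came from mock, with -3.44 against mock and 0.33 against wild-type, and wild-type cells and both clones were in the background range. The sulfotransferase gene SULT1B1 had the same form (-0.70; -1.53 against mock and 0.12 against wild-type). MC4R, a melanocortin receptor, read 7.83, 8.48 and 9.00 in the hHSS1 arrays, against 8.35, 9.48 and 10.62 in the control arrays (-1.06 ± 0.19, adjusted p = 0.00383), at -0.03 against mock and -2.08 against wild-type. In NLGN1, a synaptic adhesion protein, the difference of -0.82 ± 0.18 (adjusted p = 0.0113) was -0.10 against mock and -1.54 against wild-type. LIN7A, a scaffold protein of cell junctions, was at 0.32 against mock and -1.51 against wild-type (-0.60 ± 0.09, adjusted p = 0.00108). Its call was lost without clone 7 replicate 3 (-0.58), clone 8 replicate 1 (-0.52), mock replicate 2 (-0.56) or wild-type replicate 2 (-0.57). SORCS1, a sorting receptor (-0.91 ± 0.25, adjusted p = 0.0313), was not called without clone 8 replicate 1 (-0.83) or any 1 control array (-0.90 to -0.92). RNU4-2, a copy of the spliceosomal U4 RNA, differed by -1.06 ± 0.18 (adjusted p = 0.00322), and near-identical copies make it uncertain. MET, the receptor of hepatocyte growth factor, was called higher (0.59 ± 0.05, adjusted p = 4.73e-05) at 0.11 against mock and 1.08 against wild-type, but not without clone 7 replicate 3 (0.58), clone 8 replicate 2 (0.56) or wild-type replicate 1 (0.56). With the line as a random block, CCDC102B, SULT1B1, MC4R, NLGN1, LIN7A, SORCS1 and MET lost their calls too. MET was the 1 called gene of 17 glioma receptor tyrosine kinases, whose median was 0.02.

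**Figure D5:**
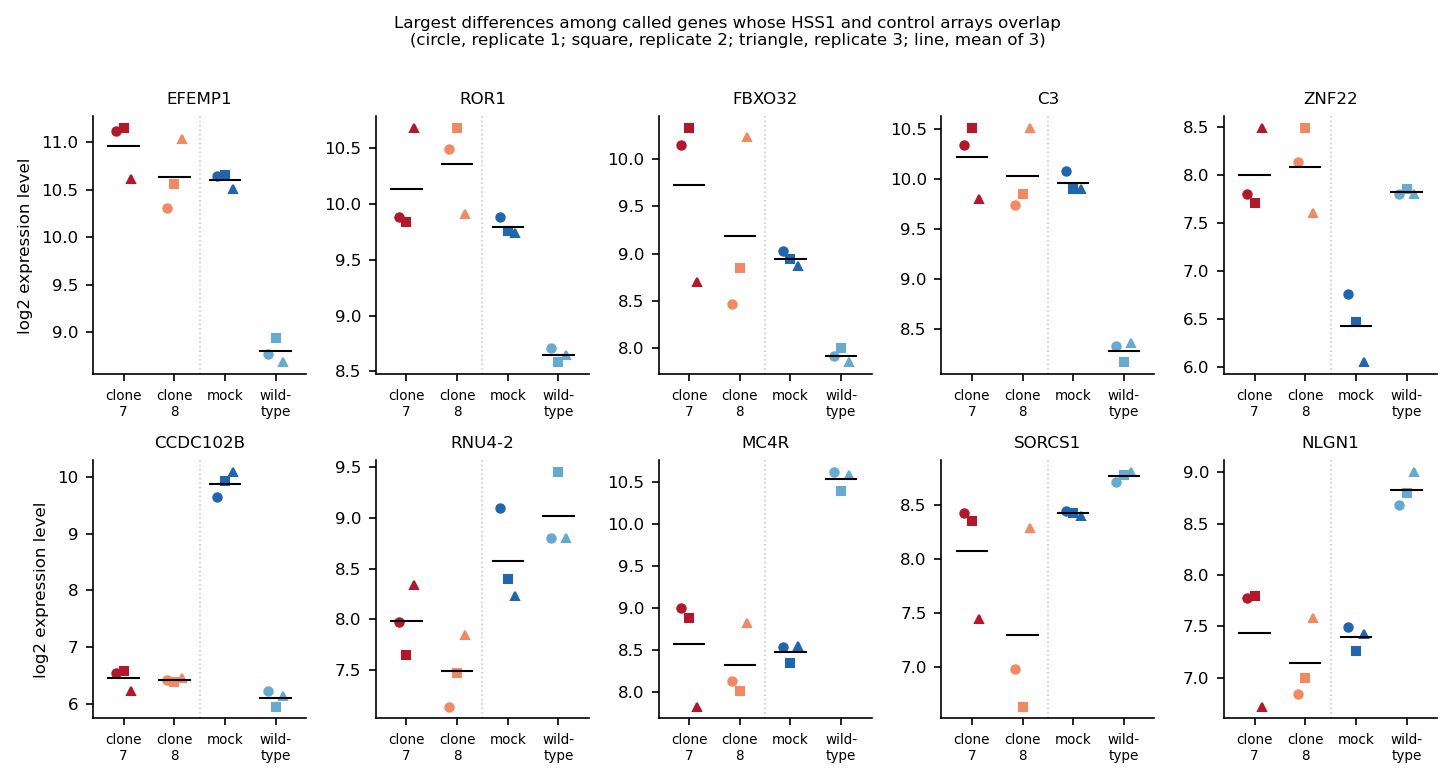
Log2 expression level (vertical axis) on each array of clone 7, clone 8, mock and wild-type cells (horizontal axis) for the 5 higher genes (top row) and the 5 lower genes (bottom row) with the largest difference among called genes whose arms overlap; a circle is replicate 1, a square replicate 2, a triangle replicate 3 and a line the mean of 3. Mock lies near the clones in EFEMP1 and C3, and apart from them in ZNF22 and CCDC102B.

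Genes with separate arms just under the fold limit were led by GPC6, a glypican (0.58 ± 0.06), the forkhead gene FOXN3 (0.57 ± 0.05) and LTBP1, which binds latent TGF-beta (0.57 ± 0.14), and on the lower side by DOCK10, an activator of small GTPases, which missed the test instead (-0.74 ± 0.23, adjusted p = 0.0541). The kinase STK17B and AKTIP, a partner of AKT, were both at -0.58. By chromosome, 8 of the 64 called higher genes with separate arms (12.5%) lay on chromosome 10, which holds 3.69% of the genes tested. Of the 53 lower ones, 9 (17.0%) lay on chromosome 1, which holds 10.1% of the genes, 8 (15.1%) on chromosome 2, with 6.28%, and 6 (11.3%) on chromosome 4, with 3.86%. These shares are a description and were not tested.

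Several list counts changed by over 1.5 times without the replicate 3 arrays of both clones. The counts over all genes changed too. At the adjusted p alone 1394 genes were higher, against 943 with all arrays, and 1995 lower, against 1278. Called lower were 85 genes, against 70, and 1018 lay wholly below, against 786. Whether a list changed more than all genes did was not tested. The list counts that follow are without these arrays. At the adjusted p alone, 9 invasion proteases and inhibitors, 14 cytokine and complement genes, 5 genes of endoplasmic reticulum stress and degradation, 5 of butanoate and branched-chain amino acid breakdown, 3 of glycolysis and hypoxia and 2 of the G1 checkpoint were higher, and 1 factor that restrains angiogenesis. Lower at the adjusted p alone were 4 ERK output genes, 3 genes of endoplasmic reticulum stress and degradation and 2 of the TGF-beta and BMP pathway. Of the axon guidance genes 2 were called lower, and of the cytokine and complement genes 1. At the adjusted p alone, 1 DNA replication gene was higher, against 0 with all arrays, and 5 contractile and actin filament genes, against 3. Lower were 4 cell-cell junction and cadherin genes, against 1, and 7 axon guidance genes, against 3. Of the fatty acid synthesis genes, 7 lay wholly below the control arrays, against 3. Not every such count is listed here.

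With wild-type alone as the control 291 genes were called, against 160 with both control lines. Of the 117 called genes with separate arms, 90 kept their call when each array was left out in turn and 27 lost it at least once. With mock alone as the control 62 of the 117 kept their call, with wild-type alone 107, with clone 7 alone 87 and with clone 8 alone 107. Under all 26 alternatives fitted, 47 kept it. Beyond the losses given with each gene, NRP1, SNORD116-14 and SNORD116-20 lost their calls against either control line alone, SNORD116-15, SORCS1, NLGN1, MC4R, MET and LIN7A against mock alone, and GPSM2 and ACAT2 against wild-type alone. With clone 7 alone GPSM2, ACAT2, KIF4A, TGFBI, NRP1, FBXO32, SORCS1, NLGN1, LIN7A, RNU4-2 and these 3 SNORD116 copies were not called, and with clone 8 alone FBXO32, MET, SESN1 and the same 3 copies. NRP1 and SNORD116-20 also lost their calls with the line as a random block, and NRP1, FBXO32, SORCS1, SNORD116-14 and SNORD116-20 with the replicate number as a block.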

How the data were processed

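Transcript levels of 12 cultures were measured on GeneChip Human Gene 1.0 ST arrays. The values deposited by the authors are log2 levels of each probe set on each array, after their summary and normalization. Partek is named in the submitters' processing notes with no version, and the summary and normalization methods are not given in the sources used here. An array has no read depth, so the number of arrays limits the precision. Of 33297 probe sets, 19460 had a single symbol in the platform annotation, 1754 several and 12083 none. By Entrez number 19429 matched a RefSeq gene list (GRCh38.p14), which changed 0 symbols. For the 769 genes with several probe sets, the one with the highest mean was kept, leaving 18417 genes. In 5 of these 769 any probe set was called, and 0 had opposite calls.

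A linear model with 1 mean per line was fitted with limma 3.58.1 in R 4.3.3 (packages statmod 1.5.0 and data.table, version 1.17.8), and p-values were adjusted by Benjamini-Hochberg over all genes. Tables, motif searches and figures used Python 3.11.15 with pandas 2.3.3, numpy 2.4.6 and matplotlib 3.10.9. The fit was tested on simulated data. Genes were called at an adjusted p under 0.05 and at least 1.5-fold. Errors on differences are standard errors. Lists (31, holding 673 genes) are described by counts and medians, with no test.

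The comparison, the genes named and the lists were chosen with earlier results of these data known. Genes were named by rule: the EMC subunits, the 12 largest differences in each direction among called genes with separate arms, the 5 widest gaps, up to 3 such genes per list (or its called member, or else its lowest adjusted p), the 5 largest called differences with overlapping arms, and the 3 largest separate but not called. Further genes were named by role after their values were seen. Alternatives covered normalization, array weights, dim genes, thresholds, single lines, line terms, the replicate number and each array left out; 1, without the replicate 3 arrays of both clones, was chosen after seeing the data.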

Additional observations from a re-analysis of the deposited data

Results flagged for a closer look

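In 84 genes with 6 arrays an arm, the highest and lowest array of each arm were compared with the rest of that arm. An array was picked where its gap to the nearest of the others, divided by the whole range, passed Dixon's critical value at the 95% level. Of 168 groups, 7 were picked. Chance picks about 1 in 20 where the 6 values come from 1 normal population. Each arm here pooled lines that differed in some genes, so that this rate need not hold. Clone 8 replicate 1 was the lowest hHSS1 array in 4 of the 7: EMC3 (10.75, nearest 10.95), BICC1 (9.33, nearest 9.58), PLCXD3 (7.92, nearest 8.10) and TGFBR2 (10.06, nearest 10.22). Wild-type replicate 1 was the lowest control array in GPSM2 (10.63, nearest 10.79) and ACAT2 (9.90, nearest 10.10), and wild-type replicate 3 the highest in EMC7 (11.58, nearest 11.46). The arms of BICC1, PLCXD3, TGFBR2, GPSM2 and ACAT2 were separate with these arrays included.

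Of 13837 probe sets with no symbol or several symbols in the platform annotation, which entered none of the counts above, 56 were called with separate arms in a fit of their own. In all 13 were called higher and 68 lower, and 337 had separate arms. They are unnamed here.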

How the results depend on the processing

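With wild-type alone as the control 291 genes were called (167 higher and 124 lower) and 283 were called with separate arms. With 1 line left out of an arm more genes had separate arms, by construction: 1107 above and 1187 below with clone 7 alone, 992 and 1310 with clone 8 alone, 1062 and 1546 with mock alone, and 1268 and 1544 with wild-type alone. Called lower were 41 genes with clone 7 alone and 108 with clone 8 alone. Without a fold limit 2221 genes passed (943 higher, 1278 lower), at 2-fold 36 (21 higher, 15 lower), and at an unadjusted p under 0.001 and 1.3-fold 434 (214 higher, 220 lower). Leaving out each array in turn gave 146 to 207 called genes, 80 to 110 higher and 57 to 97 lower, 515 to 707 separate above and 803 to 1012 below, 114 to 133 called with separate arms, 96 to 153 for mock against wild-type and 0 to 0 for clone 8 against clone 7. Without the replicate 3 arrays of both clones, mock against wild-type gave 199 and clone 8 against clone 7 gave 617. The sign turned in CCDC102B (0.33) and SULT1B1 (0.12) with wild-type alone, and in LIN7A (0.32) with mock alone. These genes differed between the control lines, and the cause was not tested. Same-numbered arrays did not deviate together (correlations from -0.832 to 0.446 over 18 pairs, median -0.04), and with the replicate number as a block 148 genes were called (85 higher, 63 lower). That block gave 107 for mock against wild-type and 0 for clone 8 against clone 7. The signal over background limits dim genes: 10 of the 117 had at least 1 line below the lower quartile.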
